A study of Mus musculus with 16 samples.

Results

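The genes described here are 51 listed genes of the cell cycle and DNA replication, and they were measured in the mouse hippocampus shortly after birth and a month later. They were chosen by name, as genes that load and run the replication machinery, drive cells from one cycle phase to the next, or separate and package chromosomes. Every probe whose symbol, current or older, belongs to a listed gene was taken, and each gene is represented by its probe with the highest mean signal. Of the 51 genes, 45 had a probe, and together they had 80 of the 25697 probes in the table. No probe matched *Mki67*, *Cdk4*, *Aurkb*, *Cenpf*, *Racgap1* or *Smc4*, so these 6 genes were not analysed here, among them the gene of the common proliferation antigen Ki-67.

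Total RNA of 16 hippocampal samples was hybridized to Illumina MouseRef-8 v2 beadchips, with 4 arrays for each genotype at postnatal day (P) 1 and at P30. The *Mef2c*-het mice, called KO in the labels, carry 1 functional and 1 exon-deleted allele of *Mef2c*, a transcription factor gene. The deletion is a conventional one, carried by all cells, in the C57BL/6J background, and WT littermates were the controls. No treatment is given for either genotype. The labels number the replicates 1, 4, 5 and 8 (WT) and 1, 2, 4 and 8 (*Mef2c*-het) at P1, and 2, 3, 6 and 7 (WT) and 3, 5, 6 and 7 (*Mef2c*-het) at P30. They state neither sex nor litter nor chip, and *Xist* and Y-linked transcripts placed 5 females and 3 males at P1 and 8 males at P30. At P1, 3 of 4 WT arrays and 2 of 4 *Mef2c*-het arrays were female, so sex was not balanced between the genotypes either.

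The targeted gene had 2 probes above background. *Mef2c*-het and WT differed on them by -0.29 and -0.24 on the log2 scale at P30 (exact permutation p 0.2 and 0.371) and by 0.07 and -0.01 at P1 (exact permutation p 0.714 and 0.971). Whether these probes lie in the deleted exon was not determined here, so they check the genotype labels only weakly. The arrays detected 12638 to 14150 probes each, and a probe's signal averaged a median of 36 to 39 beads, with a median standard error of 3.38% to 4.05%. At each age a few arrays had a higher background, replicate 8 of both genotypes at P1, and WT replicates 6 and 7 with *Mef2c*-het replicate 7 at P30. The number of arrays, 4 per group, limits the precision.

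The cell cycle copies the genome once and then divides it. In G1, licensing proteins load the MCM helicase onto replication origins. D- and E-type cyclins with their kinases open S phase, in which forks consume nucleotides made by ribonucleotide reductase and thymidylate synthase. Cyclin B with CDK1 starts mitosis, and the anaphase-promoting complex ends it. Many of these genes are transcribed only in cycling cells, through E2F sites and through the cell cycle homology region (CHR) that the DREAM and MuvB complexes bind. In the rodent hippocampus, granule neurons of the dentate gyrus are largely born after birth, and a small pool of dividing progenitors remains in the subgranular zone of adults.

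The upstream sequences of 9 of the genes are shown to place these elements beside the values that follow. They were chosen as the mitotic genes *Cdk1*, *Ccnb1*, *Cdc20* and *Top2a*, the MCM genes *Mcm5* and *Mcm6*, and *Pcna*, *Cdk2* and *Ccne1*, to which the results below return. Each line gives the 160 bases before the annotated start in the direction of the gene, 5′ to 3′, from RefSeq on GRCm38.p6. Capitals mark a CHR (TTTNAA, with N as A or G), a CCAAT box (CCAAT) or an E2F site (TTTGGCGC, TTTCCCGC, TTTGCCGC or TTTCGCGC) on either strand, so that ATTGG is a CCAAT box on the other strand.
Cdk1 (chr10:69352913-69353072, minus strand): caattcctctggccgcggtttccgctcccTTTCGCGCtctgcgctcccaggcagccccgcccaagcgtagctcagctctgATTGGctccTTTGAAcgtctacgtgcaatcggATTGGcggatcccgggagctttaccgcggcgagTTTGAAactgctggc
Ccnb1 (chr13:100786487-100786646, minus strand): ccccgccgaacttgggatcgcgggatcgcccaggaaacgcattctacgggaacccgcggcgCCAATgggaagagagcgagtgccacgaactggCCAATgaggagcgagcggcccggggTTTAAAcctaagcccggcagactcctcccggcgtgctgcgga
Cdc20 (chr4:118437344-118437503, minus strand): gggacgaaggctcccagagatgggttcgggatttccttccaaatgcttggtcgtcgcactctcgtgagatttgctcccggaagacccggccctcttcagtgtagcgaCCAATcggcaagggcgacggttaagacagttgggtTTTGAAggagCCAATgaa
Top2a (chr11:99024190-99024349, minus strand): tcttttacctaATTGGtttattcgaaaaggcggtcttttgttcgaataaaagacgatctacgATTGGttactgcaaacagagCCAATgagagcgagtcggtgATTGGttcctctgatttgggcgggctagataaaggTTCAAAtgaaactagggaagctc
Mcm5 (chr8:75109349-75109508, plus strand): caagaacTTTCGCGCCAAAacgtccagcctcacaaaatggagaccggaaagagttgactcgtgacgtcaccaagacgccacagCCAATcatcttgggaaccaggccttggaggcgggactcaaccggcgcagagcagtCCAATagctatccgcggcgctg
Mcm6 (chr1:128359706-128359865, minus strand): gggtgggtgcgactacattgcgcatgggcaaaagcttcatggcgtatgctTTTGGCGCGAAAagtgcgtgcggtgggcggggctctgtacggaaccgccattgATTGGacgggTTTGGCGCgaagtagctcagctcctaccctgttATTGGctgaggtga
Pcna (chr2:132253181-132253340, minus strand): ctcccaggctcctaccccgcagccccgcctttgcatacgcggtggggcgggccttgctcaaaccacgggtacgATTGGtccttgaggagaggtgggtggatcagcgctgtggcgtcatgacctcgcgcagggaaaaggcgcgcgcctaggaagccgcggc
Cdk2 (chr10:128705052-128705211, minus strand): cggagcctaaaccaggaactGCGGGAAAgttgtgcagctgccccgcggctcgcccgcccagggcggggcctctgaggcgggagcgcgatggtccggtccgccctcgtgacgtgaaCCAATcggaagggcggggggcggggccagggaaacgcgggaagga
Ccne1 (chr7:38107491-38107650, minus strand): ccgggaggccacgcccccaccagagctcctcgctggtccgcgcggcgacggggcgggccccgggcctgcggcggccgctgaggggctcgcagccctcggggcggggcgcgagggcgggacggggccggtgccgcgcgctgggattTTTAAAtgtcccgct

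In these windows the mitotic genes *Cdk1*, *Ccnb1*, *Cdc20* and *Top2a* each held a CHR close to the start and at least 1 CCAAT box upstream of it. *Mcm5* and *Mcm6* held CCAAT boxes and overlapping pairs of E2F sites, which read on both strands and appear as 1 longer run of capitals. *Cdk2* held 1 E2F site and 1 CCAAT box, *Pcna* 1 CCAAT box, and *Ccne1* 1 CHR without a CCAAT box.

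Of the 51 genes, 41 were in the promoter table. Not in it were *Aurkb*, *Ccna2*, *Ccnd1*, *Ccnd2*, *Ccne2*, *Gmnn*, *Kif20a*, *Lmnb1*, *Mcm4* and *Smc4*. Over the 250 bases before the start, a CHR occurred in 21 of the 41 genes (51.2%, against 28.1% of 27025 genes in the table) and a CCAAT box in 30 (73.2%, against 37.5%). Both occurred together in 17 genes (41.5%, against 10.1%), and an E2F site in 6 (14.6%, against 2.16%). The letters varied with role. CHR and CCAAT stood together in 3 of 3 G2/M cyclin and kinase genes, 4 of 4 chromosome structure genes and 5 of 8 spindle genes. They did so in only 3 of 9 mitotic kinase and checkpoint genes and 2 of 7 licensing genes. No fork and nucleotide gene (0 of 7) or G1/S gene (0 of 3) held both. E2F sites were found in 4 of 7 licensing genes, in *Cdk2* and in *Cdk1*. These are matches of letters in the reference and not measured binding.

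The first question was how many of the genes were above background at each age. An array was counted as detecting a gene where the detection p-value of its probe was under 0.05. At P1, 37 of the 45 genes were detected on all 8 arrays. The other 8 were not measurable at either age: *Gmnn*, *Ccna2*, *Ccnb2*, *Bub1*, *Ube2c*, *Tacc3* and *Smc2* were detected on 0 of 16 arrays and *Kif20a* on 1. At P30, 22 of the 37 genes were still detected on all 8 arrays, 11 on 1 to 7 arrays and 4 on none. The 4 were the helicase subunits *Mcm3* and *Mcm7*, the thymidine kinase gene *Tk1*, and *Cdca8*, which encodes the chromosomal passenger protein borealin. Among all 11714 probes detected on every P1 array, 164 (1.4%) were detected on no P30 array. A single array detected 37 of the genes at P1 in every case, 26 to 30 in WT at P30, and 23 to 28 in *Mef2c*-het at P30.

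Detection at P30 stood apart for the G2/M genes, of which only 2 were detected at P1. No G2/M gene was detected on all 8 P30 arrays: *Cdk1* and *Ccnb1* were detected on 1 each, and the probes of *Ccna2* and *Ccnb2* were at background at both ages. The other counts are of genes detected on all 8 P1 arrays. Of these, 5 of 8 licensing, 4 of 7 fork and nucleotide and 4 of 5 G1/S genes stayed on all 8 at P30. The same held for 4 of 7 mitotic kinase and checkpoint genes, 3 of 5 spindle genes and 2 of 3 chromosome structure genes.

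**Figure D1:**
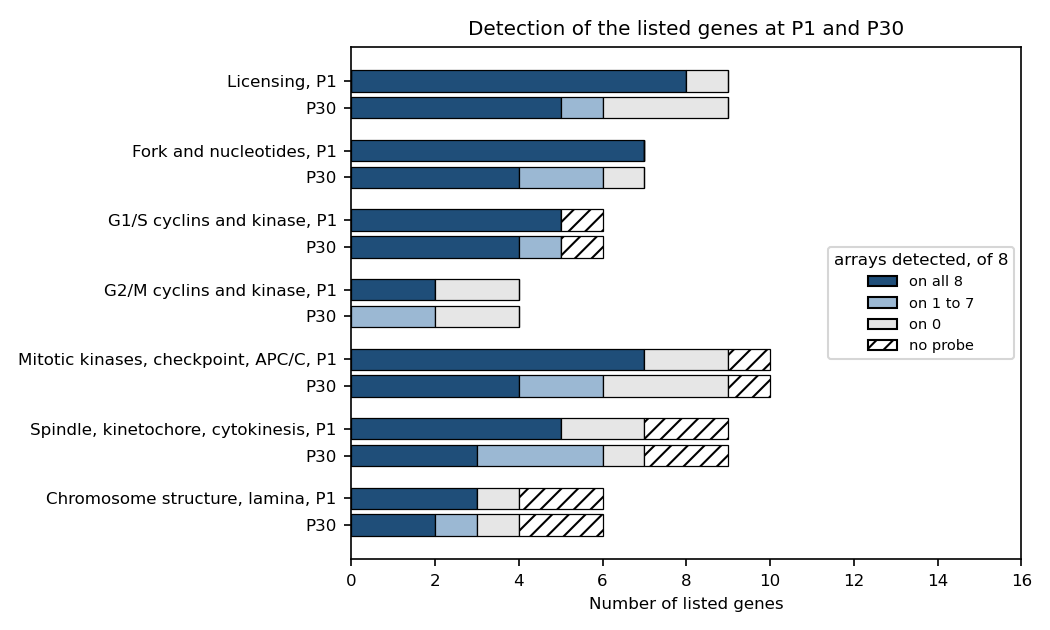
Number of listed genes detected on all 8, on 1 to 7 or on 0 of the 8 arrays of each age (WT and *Mef2c*-het together), by role, with hatching for genes without a probe. Every role group has fewer genes on all 8 arrays at P30 than at P1, and for G2/M cyclins and kinase the number goes from 2 to 0.

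The second comparison was between the ages. On all 16 arrays normalized together, 26 of the genes were detected on at least 4 arrays of each age. In WT, 24 of these 26 fell from P1 to P30 and 2 rose, *Ccnd1* and *Ccne1*, with a median log2 difference of -1.43 and a range from -3.42 to 0.27. In *Mef2c*-het, 23 fell, the same 2 rose, and *Pcna* was not called, with a median of -1.47 and a range from -3.41 to 0.33. Calls are from limma at an adjusted p under 0.05. Of all 12594 probes detected on at least 4 arrays of each age, 32.7% were called lower and 28.6% higher in WT, and 32.5% lower and 27.5% higher in *Mef2c*-het. Their median log2 difference was -0.04 in WT and -0.03 in *Mef2c*-het. In each genotype 18 of the 26 genes were at least 2-fold lower at P30, against 5.68% (WT) and 5.46% (*Mef2c*-het) of those probes.

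The other 11 genes were detected at P1 but on fewer than 4 P30 arrays, so they entered the test only through P1. They were *Mcm3*, *Mcm7*, *Rrm2*, *Tk1*, *Ccne2*, *Cdk1*, *Ccnb1*, *Cdca8*, *Kif11*, *Nusap1* and *Top2a*. With them, 34 of 37 genes were called lower in each genotype, 33 of them in both, where 31.7% of all 14777 probes tested were called lower and 28% higher in WT, and 31.4% and 26.9% in *Mef2c*-het. The adjusted p of genes called lower ran from 3.27e-14 to 0.00245 in WT and from 3.53e-14 to 0.0105 in *Mef2c*-het (limma). Where a gene was detected on no P30 array of a genotype its fall is given as a lower bound, set against the lowest signal of any detected probe.

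Several facts bear on the size of these falls. The signals hold the background of the array, which compresses folds, and the order of sizes among genes given here is that without background correction. After a normexp background correction, the median over all 45 genes with a probe went from -1.17 to -2.14 in WT and from -1.26 to -2.23 in *Mef2c*-het. Sizes also depend on the probe, and 16 genes had more than 1. The 20 other probes tested all had the sign of the chosen probe in WT, with 17 called lower and 1 higher. On most other probes the WT fall was smaller, as for *Cdca3* (-1.23 against -2.71), *Tk1* (-0.29 against -1.76) and *Tyms* (-0.84 against -1.90). A *Lig1* probe detected on 4 of 8 P1 arrays and 1 of 8 P30 arrays differed by -0.05, against -1.58. On single probes of *Birc5* (-1.90 against -1.84) and *Mcm6* (-1.54 against -1.45) the fall was larger. Sex differed between the ages, and with sex as a covariate 34 genes were again called lower in each genotype. In males alone, 29 of 33 were called lower in *Mef2c*-het. WT then has 1 array at P1, assumed to vary like the other groups, so its count of 28 of 33 has no spread of its own behind it. In whole tissue, fewer cells of a type and less RNA per cell cannot be told apart.

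**Figure D2:**
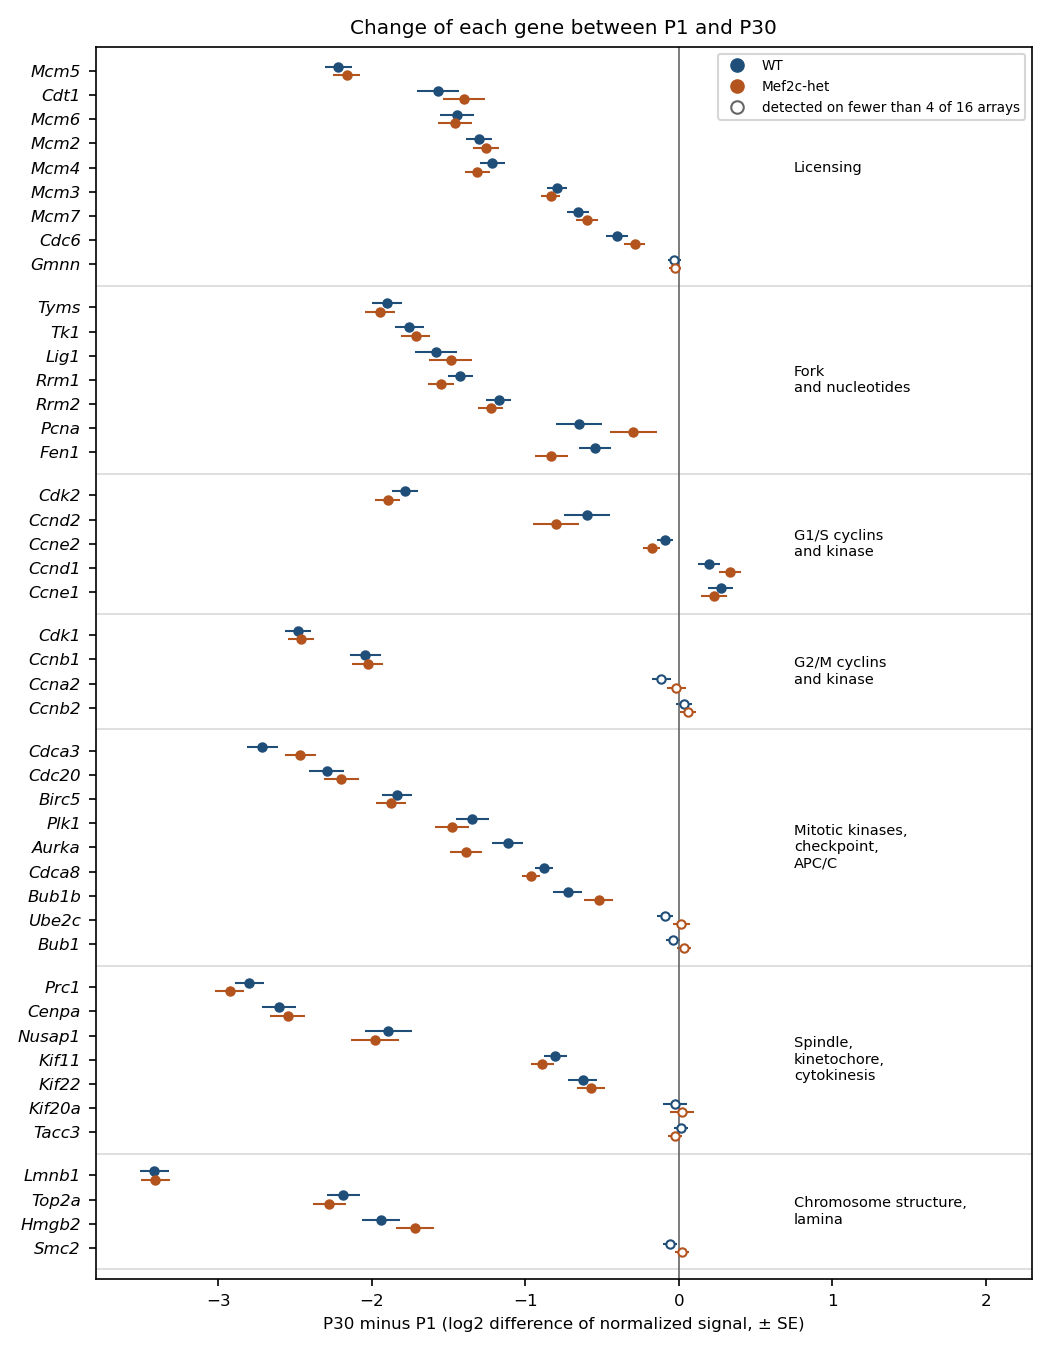
Log2 difference from P1 to P30 of each of the 45 genes with a probe in WT (blue) and *Mef2c*-het (orange), by role, with the SE of the limma fit and hollow points for the 8 genes detected on fewer than 4 of 16 arrays, which were not tested. Among the tested genes *Lmnb1* lies furthest left, *Ccnd1* and *Ccne1* lie right of 0, and both genotypes lie close together. For tested genes at background at P30 the plotted difference understates the fall.

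Among the licensing genes, the 6 detected on at least 4 arrays of each age all fell in both genotypes, where 32.7% (WT) and 32.5% (*Mef2c*-het) of such probes were called lower. Their median was -1.37 in WT and -1.36 in *Mef2c*-het. In the other role groups the counts and medians are likewise over such genes. *Mcm5*, a subunit of the MCM2-7 helicase, fell furthest. In WT its log2 signal was 10.73, 10.68, 10.34 and 10.62 at P1 and 8.40, 8.26, 8.43 and 8.41 at P30, with arrays in the order of their replicate numbers here and below, and in *Mef2c*-het it was 10.66, 10.33, 10.49 and 10.41 at P1 and 8.36, 8.34, 8.36 and 8.17 at P30. The ages were far apart and the genotypes lay on each other, a 4.66-fold fall in WT and a 4.48-fold fall in *Mef2c*-het (log2 difference -2.22 and -2.16, SE 0.09, adjusted p 2.87e-12 and 4.45e-12, limma). *Cdt1*, which brings the helicase to origins, fell with log2 differences of -1.57 in WT and -1.40 in *Mef2c*-het, *Mcm6* with -1.45 and -1.46, *Mcm2* with -1.30 and -1.26 and *Mcm4* with -1.22 and -1.31. *Mcm3* was at least 1.60-fold lower in WT and at least 1.63-fold lower in *Mef2c*-het, and *Mcm7* at least 1.47-fold and 1.36-fold lower.

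The smallest fall of this group was that of *Cdc6*, the loading ATPase. Its log2 signal was 7.79, 7.64, 7.79 and 7.55 in WT at P1 and 7.33, 7.21, 7.24 and 7.38 at P30, and in *Mef2c*-het it was 7.67, 7.76, 7.63 and 7.52 at P1 and 7.32, 7.39, 7.41 and 7.30 at P30. The ages did not overlap, but the P30 signals stood near the lowest signal of any detected probe, which lay between 7.27 and 7.38 on the 16 arrays, and 3 of the 8 were not detected. The log2 difference was -0.40 in WT (adjusted p 9.09e-05) and -0.29 in *Mef2c*-het (adjusted p 0.00181, limma), and in males alone, with P1 replicate 8 as the only WT array of its age, it was -0.24 in WT (adjusted p 0.0936).

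Of the fork and nucleotide genes, 5 of 5 fell in WT and 4 of 5 in *Mef2c*-het, with medians of -1.42 and -1.49. *Tyms* had the largest log2 difference. It encodes thymidylate synthase, which makes the DNA-specific nucleotide dTMP. The WT arrays had a log2 signal of 9.59, 9.85, 9.31 and 9.55 at P1 and 7.67, 7.66, 7.68 and 7.68 at P30, and in *Mef2c*-het it was 9.70, 9.52, 9.80 and 9.44 at P1 and 7.67, 7.74, 7.54 and 7.72 at P30. All 8 P30 arrays lay within a narrow band well below every P1 array, a 3.73-fold fall in WT and a 3.85-fold fall in *Mef2c*-het (adjusted p 6.39e-11 and 4.94e-11, limma). *Tk1*, which salvages thymidine, was at least 2.96-fold and 2.98-fold lower. The DNA ligase gene *Lig1* had log2 differences of -1.58 in WT and -1.49 in *Mef2c*-het. Those of the ribonucleotide reductase genes were -1.42 and -1.55 for *Rrm1* and -1.17 and -1.23 for *Rrm2*.

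*Fen1*, the flap endonuclease of lagging-strand synthesis, fell least in WT. Its log2 signal in WT was 10.22, 10.04, 9.91 and 10.37 at P1 and 9.51, 9.56, 9.68 and 9.61 at P30, and in *Mef2c*-het it was 10.18, 10.06, 10.20 and 10.47 at P1 and 9.38, 9.19, 9.44 and 9.57 at P30. It stayed well above background at P30, with a log2 difference of -0.55 in WT and -0.83 in *Mef2c*-het.

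*Pcna*, the sliding clamp of the polymerases and a standard marker of proliferating cells, changed less than most of its group. In WT its log2 signal was 7.87, 8.05, 8.28 and 7.68 at P1 and 7.57, 7.50, 7.17 and 7.03 at P30, and in *Mef2c*-het it was 8.06, 8.28, 7.95 and 7.62 at P1 and 7.65, 7.85, 7.64 and 7.57 at P30. The WT ages did not overlap and the *Mef2c*-het ages did. The log2 difference was -0.65 in WT (SE 0.15, adjusted p 0.00138, limma) and -0.30 in *Mef2c*-het (adjusted p 0.106). *Mef2c*-het was called lower in 3 of 19 alternative settings: without its P1 replicate 8 (-0.42, adjusted p 0.0235), on the larger array cluster alone (-0.40, adjusted p 0.00714) and when the clusters entered the fit as blocks (-0.64, adjusted p 0.000195, limma). In males alone the WT difference was -0.34 (adjusted p 0.283), with P1 replicate 8 as the only WT array of its age.

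The G1/S cyclins and kinases moved in both directions, with 2 of 4 lower and 2 higher in each genotype and medians of -0.20 in WT and -0.29 in *Mef2c*-het. *Cdk2*, the kinase partner of cyclins E and A, fell in both genotypes. The WT arrays had a log2 signal of 9.95, 10.08, 9.79 and 9.93 at P1 and 8.14, 8.12, 8.17 and 8.17 at P30, and in *Mef2c*-het it was 10.16, 9.82, 9.88 and 9.79 at P1 and 8.05, 8.06, 7.85 and 8.10 at P30. The fall was 3.45-fold in WT and 3.73-fold in *Mef2c*-het on this probe (log2 difference -1.79 and -1.90). It was smaller on another *Cdk2* probe detected on all 8 arrays of each age (-1.13 and -1.05). *Ccnd2*, cyclin D2, fell by 0.60 and 0.80 on the log2 scale.

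*Ccnd1*, cyclin D1, ran the other way at a high signal. It was at 11.09, 11.31, 10.99 and 11.14 in WT at P1 and 11.33, 11.28, 11.24 and 11.46 at P30, and in *Mef2c*-het it was at 11.12, 10.96, 10.95 and 11.08 at P1 and 11.31, 11.31, 11.40 and 11.41 at P30. The WT ages overlapped, with a log2 difference of 0.19 (adjusted p 0.0282), and the *Mef2c*-het ages did not, with a difference of 0.33 (adjusted p 0.000819, limma). The WT call was lost in 9 of 19 alternative settings, and the *Mef2c*-het call in 1. *Ccnd1* had 3 probes, and they did not give the same calls. Another of them rose by 0.34 in WT and 0.38 in *Mef2c*-het (adjusted p 0.00453 and 0.00203, limma). The last was called in neither genotype (0.13 and 0.07, adjusted p 0.263 and 0.565, limma).

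*Ccne1*, cyclin E1, also rose, at a low signal. It was at 7.61, 7.67, 7.63 and 7.89 in WT at P1 and 7.90, 7.91, 8.11 and 7.97 at P30, and in *Mef2c*-het it was at 7.76, 7.61, 7.68 and 8.01 at P1 and 8.01, 7.98, 8.01 and 7.96 at P30. The WT ages did not overlap and the *Mef2c*-het ages did, and the rise was 0.27 in WT (adjusted p 0.0102) and 0.23 in *Mef2c*-het (adjusted p 0.0275, limma). At P1 the arrays with the highest *Ccne1* were replicate 8 of each genotype, which also had a higher background. With sex as a covariate neither call held (0.15, adjusted p 0.214 in WT and 0.162 in *Mef2c*-het).

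*Ccne2*, cyclin E2, was close to the floor throughout. Its log2 signal was 7.38, 7.34, 7.43 and 7.37 in WT at P1 and 7.23, 7.33, 7.30 and 7.31 at P30, and in *Mef2c*-het it was 7.50, 7.40, 7.46 and 7.45 at P1 and 7.39, 7.19, 7.32 and 7.21 at P30. The ages lay beside each other without overlap. It was detected on 1 P30 array of each genotype, and the log2 difference was -0.09 in WT (adjusted p 0.167) and -0.18 in *Mef2c*-het (adjusted p 0.0105, limma).

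The G2/M genes were among the lowest at P30. *Cdk1*, the kinase that drives entry into mitosis, had a log2 signal of 9.61, 9.80, 9.59 and 9.76 in WT at P1 and 7.24, 7.21, 7.09 and 7.29 at P30, and in *Mef2c*-het it had 9.97, 9.61, 9.70 and 9.62 at P1 and 7.27, 7.39, 7.27 and 7.13 at P30. At P30 only replicate 5 of *Mef2c*-het was detected. *Cdk1* was at least 5.14-fold lower at P30 in WT. In *Mef2c*-het the measured means differed 5.50-fold, with 3 of 4 P30 arrays at background. *Ccnb1*, its cyclin partner, had 9.23, 9.49, 9.28 and 9.13 in WT at P1 and 7.46, 7.21, 7.11 and 7.19 at P30, and in *Mef2c*-het it had 9.41, 9.22, 9.30 and 8.99 at P1 and 7.29, 7.23, 7.05 and 7.23 at P30. Only replicate 2 of WT was detected at P30, and *Ccnb1* was at least 3.74-fold lower in *Mef2c*-het. In WT the measured means differed 4.12-fold, with 3 of 4 P30 arrays at background. The upstream sequences of both genes, shown above, hold a CHR and CCAAT boxes.

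All 6 mitotic kinase and checkpoint genes fell in both genotypes, with medians of -1.59 in WT and -1.68 in *Mef2c*-het. *Cdca3*, a cell division cycle gene that promotes mitotic entry, fell most. Its log2 signal in WT was 10.35, 10.48, 9.93 and 10.43 at P1 and 7.56, 7.63, 7.49 and 7.65 at P30, and in *Mef2c*-het it was 10.24, 9.99, 10.03 and 10.19 at P1 and 7.54, 7.74, 7.62 and 7.67 at P30. Every P30 array lay more than 2 log2 units below every P1 array, and the fall was 6.56-fold in WT and 5.53-fold in *Mef2c*-het. The other *Cdca3* probe, detected on 1 of 8 P30 arrays, had log2 differences of -1.23 and -1.17. *Cdc20*, which activates the anaphase-promoting complex, was 4.90-fold and 4.59-fold lower, and fell less on its other probes. *Birc5*, which encodes survivin, had log2 differences of -1.84 and -1.88. Those of the mitotic kinase gene *Plk1* were -1.35 in WT and -1.48 in *Mef2c*-het, and those of *Aurka* -1.11 and -1.39. *Cdca8* was at least 1.65-fold lower in WT and at least 1.70-fold lower in *Mef2c*-het.

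*Bub1b*, which encodes the spindle checkpoint protein BubR1, fell least among them. In WT its log2 signal was 8.22, 8.03, 8.02 and 8.27 at P1 and 7.33, 7.42, 7.49 and 7.40 at P30, and in *Mef2c*-het it was 7.86, 7.75, 7.89 and 8.27 at P1 and 7.35, 7.36, 7.51 and 7.47 at P30. The ages did not overlap, with log2 differences of -0.72 in WT and -0.52 in *Mef2c*-het. The P30 signals of *Bub1b* were near the floor, so the size of its fall is uncertain. Over 19 alternative settings the difference ran from -1.70 to -0.61 in WT and from -1.30 to -0.40 in *Mef2c*-het.

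All 3 spindle, kinetochore and cytokinesis genes fell in both genotypes, with medians of -2.60 in WT and -2.55 in *Mef2c*-het. *Prc1*, which bundles the microtubules of the central spindle, fell most. The WT arrays had a log2 signal of 10.77, 10.97, 10.74 and 11.01 at P1 and 8.08, 7.95, 7.93 and 8.35 at P30, and in *Mef2c*-het it was 11.06, 10.77, 10.73 and 10.80 at P1 and 7.89, 7.90, 7.91 and 7.96 at P30. It was 6.95-fold lower at P30 in WT and 7.60-fold lower in *Mef2c*-het, and remained detected. *Cenpa*, the centromeric histone H3 variant, was 6.08-fold and 5.86-fold lower. *Nusap1* and the spindle motor gene *Kif11* had log2 differences of -1.89 and -0.81 in WT, where each was detected on 2 of 4 P30 arrays, and were at least 3.48-fold and 1.65-fold lower in *Mef2c*-het.

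*Kif22*, a chromokinesin gene, fell least. Its log2 signal in WT was 9.65, 9.67, 9.46 and 9.72 at P1 and 8.92, 8.87, 9.20 and 9.01 at P30, and in *Mef2c*-het it was 9.60, 9.29, 9.30 and 9.68 at P1 and 8.86, 8.90, 8.89 and 8.92 at P30. Its signal stayed well above the floor at both ages, with log2 differences of -0.63 and -0.57.

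Both chromosome structure genes measured at each age fell, and *Lmnb1* had the largest measured difference of the 37 genes tested. After normexp background correction that of *Cdk1* was larger (-4.52 in WT, against -4.01 for *Lmnb1*, and -4.38 in *Mef2c*-het), and so were those of *Cdca3* in WT (-4.03) and *Top2a* in *Mef2c*-het (-4.30). *Lmnb1* encodes lamin B1 of the nuclear lamina, and its level is not restricted to dividing cells. In WT its log2 signal was 11.92, 11.91, 11.74 and 11.71 at P1 and 8.48, 8.32, 8.45 and 8.36 at P30, and in *Mef2c*-het it was 11.85, 12.08, 11.71 and 11.68 at P1 and 8.39, 8.36, 8.30 and 8.62 at P30. The fall was 10.7-fold in WT and 10.6-fold in *Mef2c*-het (log2 difference -3.42 and -3.41, SE 0.09, adjusted p 3.27e-14 and 3.53e-14, limma). The other *Lmnb1* probe was detected on 6 of 8 P1 arrays and 1 of 8 P30 arrays. Its log2 difference was only -0.30 in WT and -0.26 in *Mef2c*-het (adjusted p 0.0208 and 0.0374, limma). *Top2a*, the topoisomerase that untangles replicated chromosomes, had 9.46, 9.71, 9.24 and 9.63 in WT at P1 and 7.27, 7.31, 7.33 and 7.38 at P30, and in *Mef2c*-het it had 9.61, 9.16, 9.64 and 9.45 at P1 and 7.15, 7.34, 7.10 and 7.16 at P30. It was detected on 2 WT arrays and 1 *Mef2c*-het array at P30. Its fall was 4.55-fold in WT and 4.85-fold in *Mef2c*-het with the undetected arrays at their measured signal, which was at background.

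*Hmgb2*, a chromatin protein gene abundant in proliferating cells, fell less than *Lmnb1* and *Top2a*. The WT arrays had a log2 signal of 9.59, 10.01, 9.53 and 9.70 at P1 and 7.80, 7.62, 7.81 and 7.84 at P30, and in *Mef2c*-het it was 9.62, 9.37, 9.37 and 9.65 at P1 and 7.60, 7.69, 7.69 and 8.15 at P30. Even so it was 3.84-fold lower at P30 in WT and 3.30-fold lower in *Mef2c*-het.

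**Figure D3:**
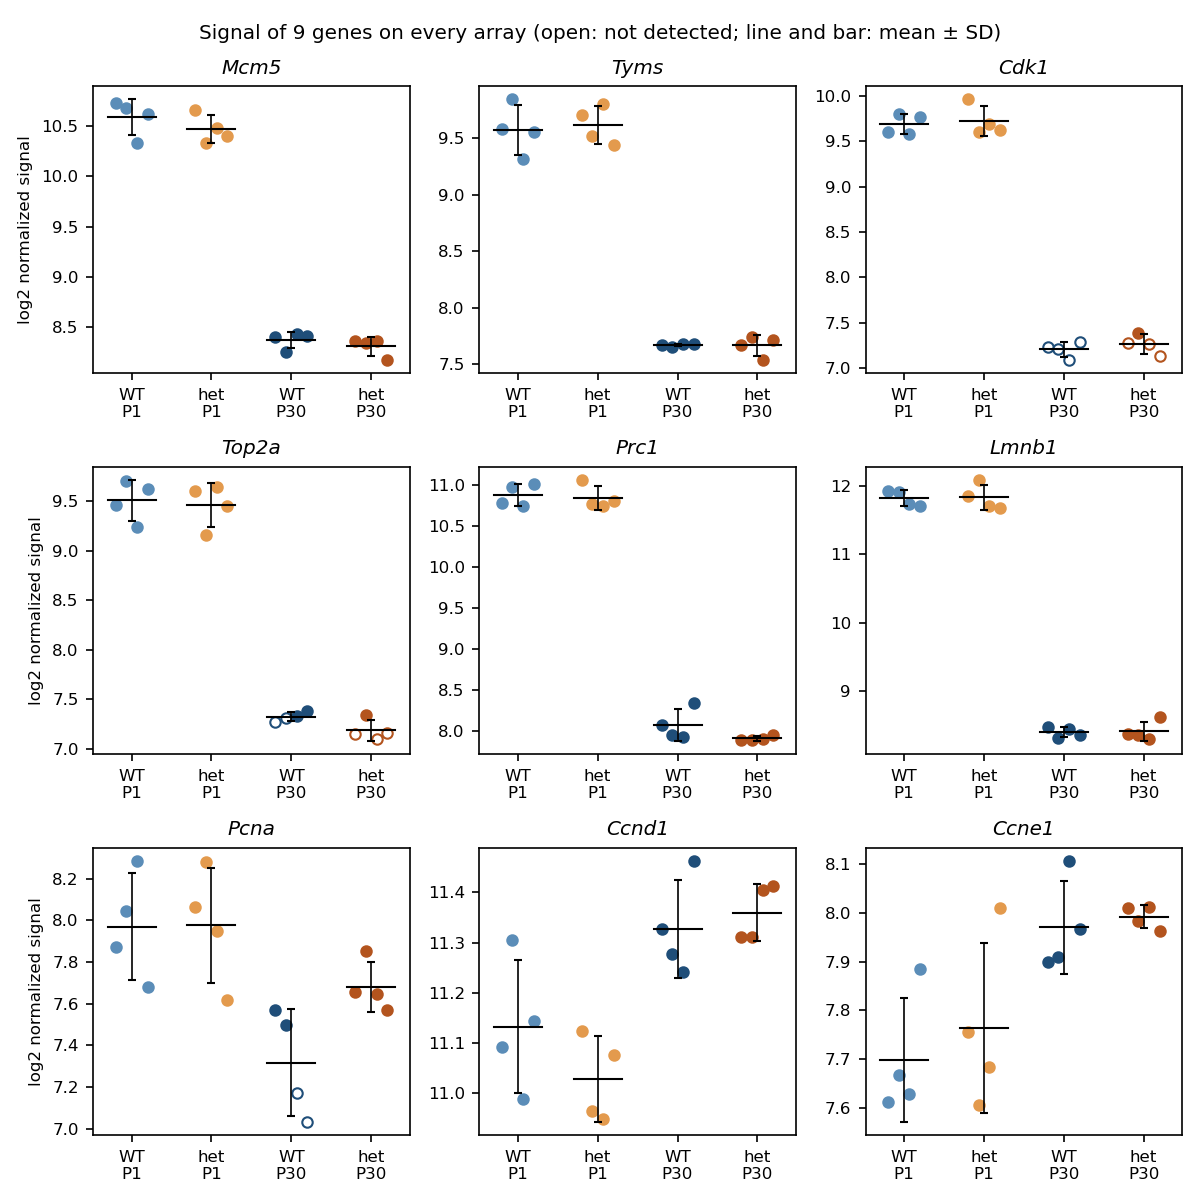
Log2 normalized signal of 9 genes on each of the 16 arrays, by genotype and age, with the mean (line) and SD (bar) of 4 arrays, hollow points where the gene was not detected, and axes that differ between panels and do not start at 0. The P1 and P30 arrays are far apart for *Mcm5*, *Tyms*, *Cdk1*, *Top2a*, *Prc1* and *Lmnb1* and closer together for *Pcna*, *Ccnd1* and *Ccne1*.

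The falls were also set beside the promoter letters, as a description without a test. Among the genes detected on at least 4 arrays of each age, the median log2 difference in WT was -2.08 over 8 with both a CHR and a CCAAT box (range -2.80 to -0.63) and -1.43 over 14 without both (range -2.71 to 0.27), so the ranges overlapped almost fully. With an E2F site it was -1.62 (4 genes), and without one -1.50 (18 genes). With a CCAAT box, alone or with others, it was -1.45 (15 genes) and without one -1.57 (7 genes). *Kif22*, with a CHR and CCAAT boxes, fell by 0.63 on the log2 scale. *Cdca3*, without a CHR, fell by 2.71 on its chosen probe and by 1.23 on its other probe.

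Other genes of the cell cycle, listed apart from the 51, moved in the same direction for the most part. The counts of this and the next lists stand against 31.7% of all probes called lower and 28% higher in WT, and 31.4% and 26.9% in *Mef2c*-het, and the lists hold genes that passed the filter through 1 age alone. Of 29 further replication genes tested, 22 fell and 2 rose in WT, and 24 fell and 2 rose in *Mef2c*-het. *Uhrf1*, which recruits the maintenance DNA methyltransferase, fell by 2.62 and 2.61 on the log2 scale. *Dut*, the dUTPase gene, rose by 0.85 and 0.93, against the direction of *Tyms*, whose substrate dUMP it makes. Of 20 further mitosis genes, 17 fell and 2 rose in WT, and 15 fell and 2 rose in *Mef2c*-het. The condensin gene *Ncaph* fell (-1.65 and -1.67), and *Anln*, an actin-binding protein of the cleavage furrow that oligodendrocytes also express, rose by 1.44 and 1.36. Of 15 transcriptional regulators of the cycle, 8 fell and 3 rose in WT and 7 fell and 1 rose in *Mef2c*-het, with *Mybl2*, the MuvB partner B-Myb, lowest (-1.06 and -0.99) and the repressor gene *E2f6* highest (0.47 and 0.54).

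Inhibitors of the cycle were listed too. Of 6 CDK inhibitor genes tested, 3 fell and 0 rose in WT, and 3 fell and 1 rose in *Mef2c*-het. *Cdkn1c*, the p57 gene, fell by 2.69 and 2.68 on the log2 scale, and *Cdkn2d*, the p19-INK4d gene, was 0.19 higher in WT (adjusted p 0.121) and 0.31 higher in *Mef2c*-het (adjusted p 0.0136, limma). Among 5 cyclin and kinase genes used by postmitotic cells, 2 fell and 2 rose in both genotypes. *Cdk5*, the neuronal kinase, rose by 0.79 and 0.62, and its activator gene *Cdk5r1* fell by 0.70 and 0.60.

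Markers of progenitor cells moved with the cell cycle genes. Of 9 neural progenitor markers tested, 8 fell and 1 rose in each genotype. *Nes*, the intermediate filament gene of neural stem cells, fell by 2.58 and 2.57 and *Vim* by 2.86 and 2.74 on the log2 scale, while *Hes1*, a Notch target, rose by 0.32 and 0.52. The mean log2 signal of the list was 8.52 to 8.88 on the P1 arrays and 7.75 to 7.87 on the P30 arrays. Of 8 markers of intermediate progenitors and neuroblasts, 8 fell in WT and 7 in *Mef2c*-het, with *Dcx*, the microtubule protein gene of migrating neuroblasts, lowest (-4.55 and -4.59), and the list's mean was 9.18 to 9.50 at P1 and 7.54 to 7.65 at P30. *Pax6*, *Hopx*, *Emx2* and *Neurog1* were at background. The lists of mature glia moved the other way, with 6 of 6 oligodendrocyte markers higher in both genotypes and 6 of 7 astrocyte markers higher in each. Of 12 microglia markers, 8 were higher in WT and 12 in *Mef2c*-het. The hippocampal neuron list had a mean log2 signal of 8.49 to 8.79 at P1 and 9.51 to 9.65 at P30, with 2 of 8 markers lower and 5 higher in WT and 3 and 5 in *Mef2c*-het. *Prox1*, *Zbtb20*, *Slc17a7* and *Camk2a* were detected at both ages. Of the remaining lists, oligodendrocyte precursor markers were called higher for 4 of 5 in WT and 2 of 5 in *Mef2c*-het. Endothelial markers were lower for 3 and higher for 3 of 8 in WT and lower for 4 and higher for 3 in *Mef2c*-het, shares close to those over all probes. Erythroid markers were lower for 2 of 4 in WT and 0 in *Mef2c*-het, and meningeal markers lower for 2 and higher for 1 of 8 in WT and lower for 3 and higher for 1 in *Mef2c*-het. Of 7 choroid plexus markers, 1 was lower and 2 higher in each genotype, with a median log2 difference of -0.84 in WT and -0.83 in *Mef2c*-het. The mean log2 signal of this list varied widely within groups, from 8.19 to 9.81 in WT and 7.74 to 9.40 in *Mef2c*-het at P1, and from 7.71 to 9.08 in WT and 7.94 to 8.15 in *Mef2c*-het at P30. *Ttr*, its most abundant marker, had a log2 difference of -2.34 in WT (adjusted p 0.0545, limma). The part of cell type makeup in the falls was not tested.

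The third question was whether the genes differed between *Mef2c*-het and WT at either age. None of the 26 genes tested at P30 was called at an adjusted p under 0.05 in limma, where 0.00746% of 13413 probes (1 probe) were called. None of the 37 tested at P1 was called, where 0% of 13566 probes were. At an unadjusted p under 0.05 there was 1 gene at P30, *Pcna*, against 2.36% of all probes, and 0 at P1, against 1.62%. The lowest adjusted p of any of the genes was 0.976 at P30 and 1 at P1. The median log2 difference, *Mef2c*-het minus WT, was -0.02 at both ages, with 15 of 26 genes lower at P30 and 21 of 37 lower at P1. Over all probes tested the median was -0.01 at P30 and 0.00 at P1.

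The intervals bound the differences. The 95% intervals of single genes reached from -0.43 to 0.61 on the log2 scale at P30 and from -0.53 to 0.41 at P1, with a median half-width of 0.17 and 0.24. The interval excluded 0 for 1 gene at P30 and for 0 at P1. For scale, the median log2 difference between the ages over the same 26 genes was -1.43 in WT. At P30, none of the 4 G2/M genes was measurable enough to be tested, and *Top2a* was not tested either (-0.13).

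**Figure D4:**
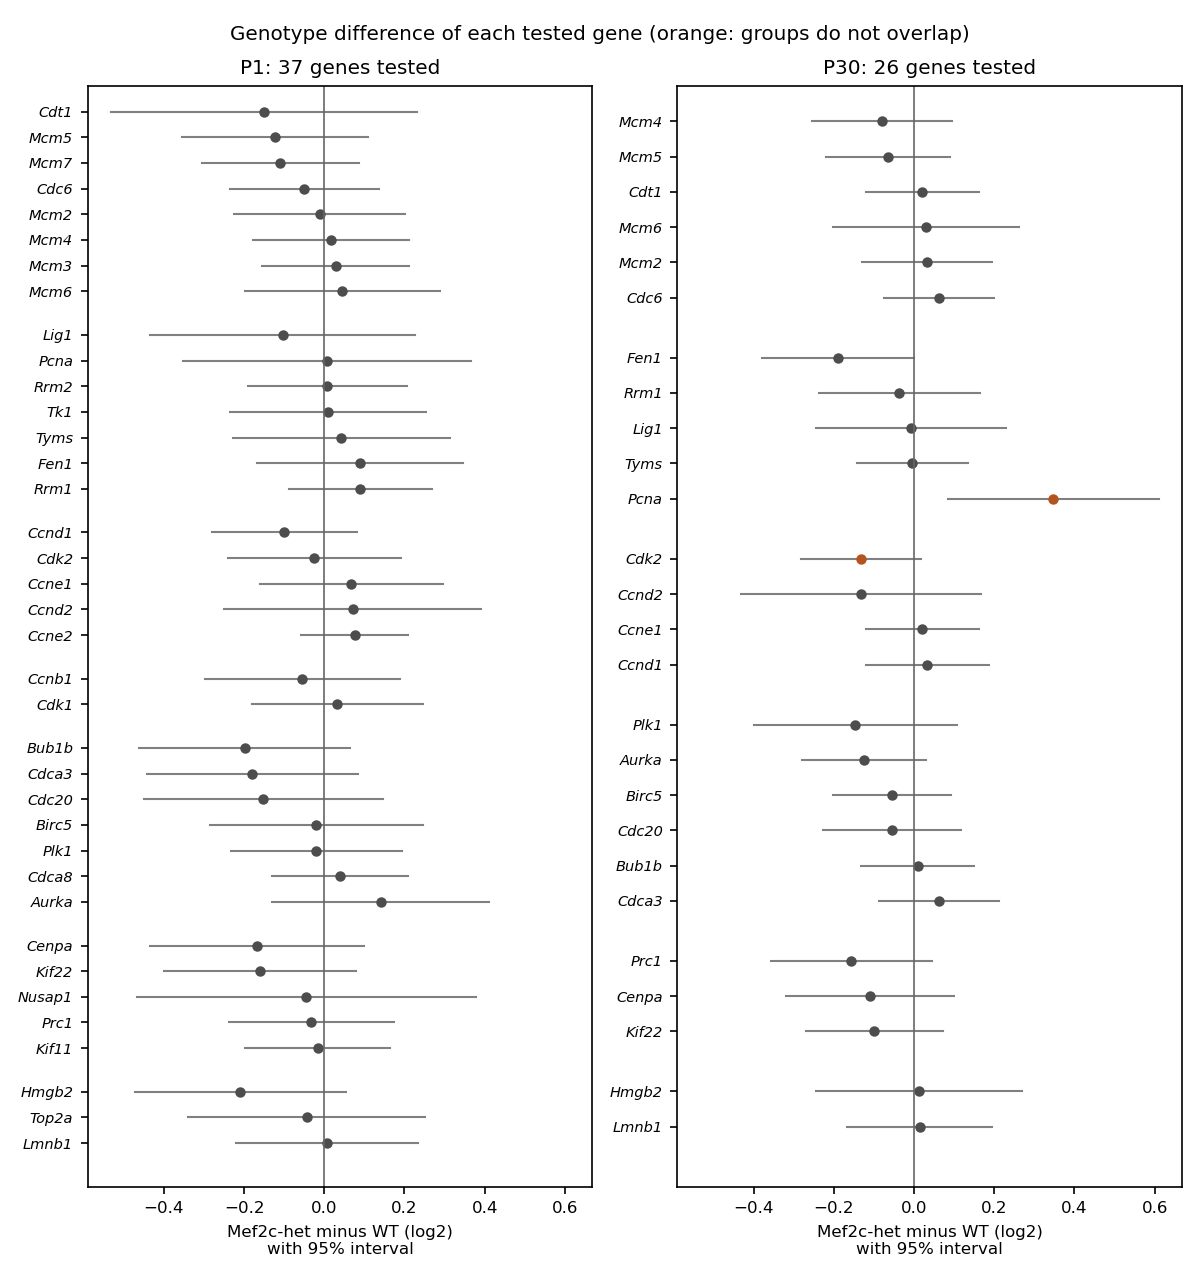
Log2 difference of *Mef2c*-het minus WT at P1 (37 genes) and P30 (26 genes), in blocks by role, with the 95% interval from limma and orange points where the groups do not overlap. Every interval except that of *Pcna* at P30 includes 0, and the medians are -0.02 at both ages.

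*Pcna* was the gene with the largest difference at P30. With the 8 P30 arrays normalized alone, its log2 signal was 7.55, 7.49, 7.18 and 7.04 in WT and 7.64, 7.83, 7.63 and 7.56 in *Mef2c*-het. The groups did not overlap, and the difference was 0.35 (SE 0.12, p 0.0151 and adjusted p 0.976, limma). The exact permutation test over 70 splits gave a p of 0.0286, the smallest that 4 against 4 arrays allow. The 2 lowest WT arrays, replicates 6 and 7, were not detected (detection p 0.221 and 0.678), and both belong, with *Mef2c*-het replicate 7, to 3 arrays of higher background. The 5th percentile of signal was 143.8 to 158.4 on these 3 and 105.8 to 124.6 on the other 5 P30 arrays. With this division as a block the difference was 0.27, and on the other 5 arrays alone it was 0.19. At P1 *Pcna* differed by 0.01 (p 0.965, limma).

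*Cdk2* was the other gene whose groups did not overlap at P30. Its log2 signal was 8.11, 8.09, 8.14 and 8.14 in WT and 8.03, 8.03, 7.83 and 8.07 in *Mef2c*-het. *Mef2c*-het replicate 6 was the lowest, and without it the difference went from -0.13 (SE 0.07, p 0.076, adjusted p 0.976, limma) to -0.08. The exact permutation p was 0.0286 here too. Another *Cdk2* probe, detected on all 8 P30 arrays, differed by -0.07 (p 0.372, limma). *Pcna* and *Cdk2*, as 2 of 26 genes, compare with 1.75% of all probes whose groups did not overlap at P30. At P1 there were 0 of 37 genes and 1.29% of probes.

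By role, the 3 spindle genes tested at P30 were all lower in *Mef2c*-het (*Prc1* -0.16, *Cenpa* -0.11, *Kif22* -0.10), and so were the 5 tested at P1, but none was called. Of the fork and nucleotide genes, 4 of 5 were lower at P30, led by *Fen1* (-0.19, p 0.0502, limma), and 6 of 7 were higher at P1. Several were close to 0: *Tyms* and *Lig1* (-0.005 and -0.007) at P30, and *Pcna*, *Rrm2* and *Tk1* (0.007, 0.007 and 0.009) at P1. Over all probes tested, 7384 of 13413 were lower at P30 and 6879 of 13566 higher at P1. Of the mitotic kinase and checkpoint genes, 4 of 6 were lower at P30 and 5 of 7 at P1. Of the licensing genes, 2 of 6 and 5 of 8 were lower. None of the progenitor, neuroblast, glial or other marker lists, and none of the other cell cycle lists, held a gene called between genotypes at either age (limma). At an unadjusted p under 0.05 they held 2 of 12 microglia markers and 1 of 5 neuroblast markers at P30. At P1 they held 3 of 12 microglia markers and 2 of 29 replication genes. Over all probes the shares were 2.36% at P30 and 1.62% at P1. Of the 12 microglia markers, 10 were higher in *Mef2c*-het at P30 and 10 were lower at P1.

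The effect of genotype was also compared between the ages in the fit of all 16 arrays. None of the 37 genes was called for a difference, where 0% of 14777 probes were, and 0 had an unadjusted p under 0.05, against 2.96% of probes. The lowest adjusted p was 0.998, the median difference was -0.01, and the 95% intervals reached from -0.65 to 0.81. *Pcna* had a difference of 0.36 (p 0.116, limma). The age differences of both genotypes, set side by side, lay within 0.2 on the log2 scale of each other for 30 of 37 genes, with a median absolute difference of 0.09. The mean log2 signal of the 22 genes detected on all 16 arrays was 9.77 to 10.02 in WT and 9.77 to 9.95 in *Mef2c*-het at P1. At P30 it was 8.32 to 8.44 in WT and 8.31 to 8.39 in *Mef2c*-het.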

How the data were processed

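Signal intensity, bead standard error, bead number and detection p-value of 25697 probes were deposited by the authors for 16 arrays, 1 hippocampal sample each. The intensities are on the linear scale and were not normalized. Per the labels, limma and lumi were used in the study, with no version given, and a method of background correction before deposit is not given in the sources used here. RNA was extracted with Trizol and miRNeasy columns, and cRNA was biotinylated. Of the probes, 25376 were named through the annotation table (GRCm38.p6).

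Intensities were log2 transformed and quantile normalized, within 1 age for genotype comparisons and over 16 arrays for ages. A probe entered the limma test (version 3.58.1, R 4.3.3) where at least 4 arrays of the fit had a detection p under 0.05, and Benjamini-Hochberg adjustment ran over every probe in the test. For single genes, means were also compared over all splits of the arrays (exact permutation, two-sided). Tests were checked on simulated data. Replicates are separate samples per the labels; nothing states that they came from separate litters. The genes, their roles and the other lists were chosen with earlier results of these data known. Values on every array are given for genes with an unadjusted p under 0.05 or groups that do not overlap between genotypes, for the largest and smallest age difference of each role, for genes that did not fall, and for *Top2a*, *Pcna* and *Cdk1*. Alternatives covered background correction, scaling, filters, variance model, probe choice, array cluster, sex and each replicate left out. Same-numbered arrays of both genotypes were not treated as pairs.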

Additional observations from a re-analysis of the deposited data

Results flagged for a closer look

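Within the groups of 4 arrays, 3 of 148 gene and group combinations held an array set apart from the other 3 by more than Dixon's critical value, against 7.4 that chance gives at 1 in 20. *Mcm5* in WT at P30 had replicate 3 apart (8.26, nearest 8.40 on the log2 scale, ratio 0.843), and in *Mef2c*-het at P30 it had replicate 7 apart (8.17, nearest 8.34, ratio 0.885). *Plk1* in WT at P30 had replicate 7 apart (8.08, nearest 7.65, ratio 0.845). All 3 signals were detected.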

How the results depend on the processing

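The median log2 difference with age over all 45 genes with a probe, -1.17 in WT and -1.26 in *Mef2c*-het, moved to -2.14 and -2.23 after normexp background correction and to -0.72 and -0.83 with the mean over all probes of a gene. Over 19 alternatives in each genotype, the number of genes called lower ran from 28 to 34 in WT and from 29 to 35 in *Mef2c*-het. The lowest counts came from males alone, where fewer genes were tested and WT had 1 array at P1, assumed to vary like the other groups. These counts can include genes that entered the test only through P1, so they bear little on the genes detected at both ages. No gene was called between genotypes in any of 20 alternatives at P30, 21 at P1 and 27 for the difference between the ages. At an unadjusted p under 0.05 there were 1 to 4, 0 to 2 and 0 to 3 genes. *Pcna* at P30 ranged from 0.19, on the larger array cluster alone, to 1.01, after normexp, with an adjusted p of 0.476 to 1 (limma). *Ccne1* in *Mef2c*-het lost its call with age in 7 of 19 alternatives and in WT in 2. Array clusters, sex as a covariate and males alone were chosen after seeing the data, and sex could not be fitted at P30, where all arrays were male. Same-numbered arrays correlated from -0.532 to 0.708 at P30 and from 0.09 to 0.828 at P1, so the numbers were not taken to pair mice, and with them as a replicate block 0 genes were called at P30, at P1 and for the difference. Signals near the floor limit the 11 genes that few P30 arrays detected. They also limit genes counted as detected at both ages whose P30 mean was little above it. In WT these means were 7.43 for *Mcm2*, 7.44 for *Cdt1*, 7.41 for *Bub1b* and 7.45 for *Birc5*, beside a floor of 7.27 to 7.38.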
